A study of Danio rerio with 32 samples.

Results

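The 5 early neurogenesis genes described here were read by Ensembl identifier from a table of 15710 genes measured in whole zebrafish embryos. They are INSM1 (ENSDARG00000053301), ELAVL3 (ENSDARG00000014420), one gene named HES6 (ENSDARG00000007097), dlc (ENSDARG00000002336) and one gene named DBX1 (ENSDARG00000001859), and all 5 were found and none was removed by the filter on low values. The 32 libraries fall into 4 groups of 8: embryos exposed to all-trans retinoic acid, to valproic acid or to folic acid, and unexposed control embryos. Exposure lasted 4 h, from 3 to 7 h after fertilization, and all 4 groups were kept in Dutch standard water with 0.01% DMSO. The series names the first 2 compounds as teratogens and folic acid as a negative control. No strain, genotype or dose is given in the labels. Titles number the libraries up to 48, and each block of 12 consecutive numbers, called a set here, holds 2 libraries of every group.

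In the neural plate a cell that shows Delta ligands such as DeltaC on its surface switches on the Notch receptor of its neighbours, and Notch in turn switches on Hes and Her repressors, which keep those neighbours as progenitors. Cells that escape this repression turn on proneural factors, pass through a short phase marked by INSM1, and become neurons that carry the RNA-binding protein ELAVL3, known in zebrafish as HuC. Retinoic acid is a ligand of nuclear receptors and patterns the hindbrain and spinal cord, and valproic acid inhibits histone deacetylases.

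Values are the deposited normalized log2 levels, on which a difference of 1 is a doubling. Levels are not corrected for gene length, so differences were taken only within a gene, except for the summed levels of 2 gene lists given below. A gene was called where limma's adjusted p over all 15710 genes was under 0.05. Nothing states whether replicates are separate clutches, pools or extractions. The p-values therefore speak to library-to-library spread, part of which may be technical. The main fit has no term for the set, so this spread also holds differences between sets. RNA came from whole embryos, so more or fewer cells of a type and more or less RNA per cell cannot be told apart. Only RNA was measured, and whether neurons had formed was not observed. Markers of neural plate and pluripotent ectoderm, mesoderm, organizer, endoderm, enveloping layer and germ cells were above the lowest value in all 32 libraries. Sequencing depth, estimated as the reads at the lower-quartile gene, was 22 to 34 in retinoic acid libraries, 18 to 52 in valproic acid libraries, 12 to 45 in folic acid libraries and 19 to 47 in control libraries. The 3 comparisons with control share the same 8 control libraries. Within a set a comparison holds only 2 libraries per group, where a lack of overlap is easily reached.

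INSM1, ELAVL3 and HES6 were higher after retinoic acid by 1.62 to 2.39 on the log2 scale, and their retinoic acid and control libraries did not overlap. How many of all genes lack such overlap, over all libraries or within each set, was not counted. After valproic acid all 5 genes were called: INSM1 and ELAVL3 rose, and HES6, dlc and DBX1 fell. HES6 was thus called in opposite directions in the 2 teratogen groups. Folic acid gave no call for any of the 5. These calls stand against different backgrounds. Retinoic acid called 115 genes, or 0.732% of all tested, with 0.592% higher and 0.14% lower than control. Valproic acid called 4919 genes, 31.3% of all tested, with 15.9% higher and 15.4% lower. A call after valproic acid is therefore common in this table and one after retinoic acid uncommon, and the 5 genes were chosen with earlier results known. Folic acid called 0% of genes by limma, with 507 genes at an unadjusted p under 0.05.

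**Figure D1:**
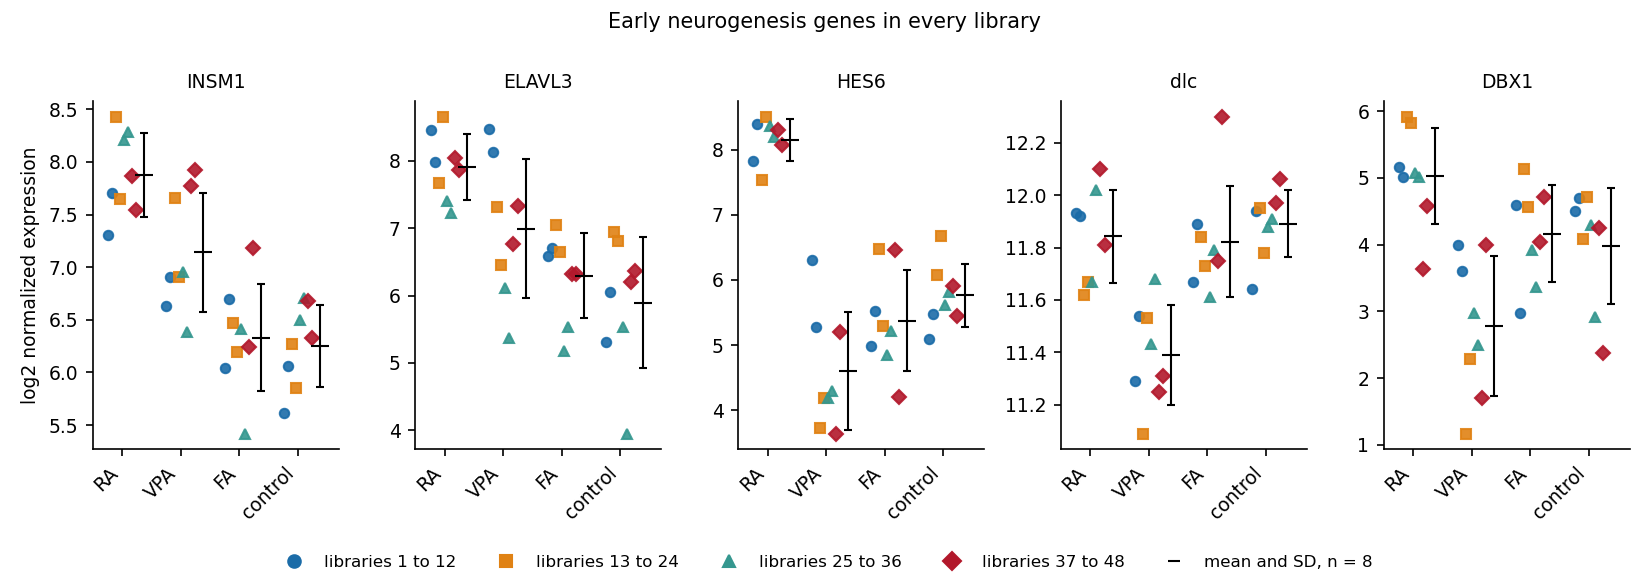
Normalized log2 level of each gene (vertical axis, own scale per gene) in every library of the retinoic acid (RA), valproic acid (VPA), folic acid (FA) and control groups; colours and shapes mark the sets by title number, and bars give the mean and SD over 8 libraries. The RA libraries of HES6 sit between 7.54 and 8.51, above every library of the other groups.

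The Delta ligand gene dlc, which in zebrafish acts both in the neural plate and in the forming somites, had 11.62, 11.86 and 12.10 as its lowest, median and highest level in retinoic acid libraries. The same 3 values were 11.09, 11.37 and 11.68 in valproic acid libraries. Folic acid libraries gave 11.61, 11.77 and 12.30, and control libraries gave 11.64, 11.92 and 12.06. The valproic acid libraries were the low ones, with 7 of 8 below every control library, and the other groups overlapped widely. In valproic acid the mean was 11.39 ± 0.19, against 11.89 ± 0.129 in controls (SD, n = 8 each), a log2 fold change of -0.50 (SE 0.09, limma adjusted p = 5e-05). This is 0.706 of the control level, and it was called in each fit that left out 1 library. Retinoic acid gave a difference of -0.05 with a 95% confidence interval of -0.23 to 0.13, and folic acid one of -0.07 with an interval of -0.25 to 0.11. Within the 4 sets the valproic acid difference was -0.37, -0.56, -0.34 and -0.74, and the 2 groups did not overlap in any set. Fitted alone, libraries 1 to 12, 13 to 24 and 25 to 36 did not give a valproic acid call (limma adjusted p = 0.053, 0.17 and 0.13).

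Other Delta ligand genes in the table did not all move with dlc. The identifier table names dlb and, under the name DLL1, ENSDARG00000010791 and ENSDARG00000020219; the DLL1 pair was added after the table was seen. Both DLL1 genes fell after valproic acid, ENSDARG00000010791 by 0.58 (SE 0.17, limma adjusted p = 0.0081) and ENSDARG00000020219 by 0.51 (SE 0.07, limma adjusted p = 1.5e-06). The level of dlb rose to 7.26 ± 0.462 in valproic acid, against 6.71 ± 0.319 in controls (SD, n = 8 each), a log2 fold change of 0.55 (SE 0.20, limma adjusted p = 0.031). After retinoic acid dlb was at 7.48 ± 0.318, a difference from control of 0.78 that did not pass the threshold (SE 0.20, limma adjusted p = 0.052). All 8 retinoic acid libraries of dlb lay between 7.02 and 7.87, and the 8 control libraries between 6.07 and 7.00. The valproic acid call for dlb was lost in 7 of the 32 fits that left out 1 library, with an adjusted p of up to 0.078 without valproic acid replicate 8. It was also lost without control replicate 1, 5 or 7 and without valproic acid replicate 2, 3 or 5, and the dlb difference in retinoic acid was called in 11 of the 32 such fits. Without libraries 1 to 12, 25 to 36 or 37 to 48 the valproic acid call for dlb was lost as well, and without libraries 13 to 24 that of DLL1 (ENSDARG00000010791) was (limma adjusted p = 0.082).

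**Figure D2:**
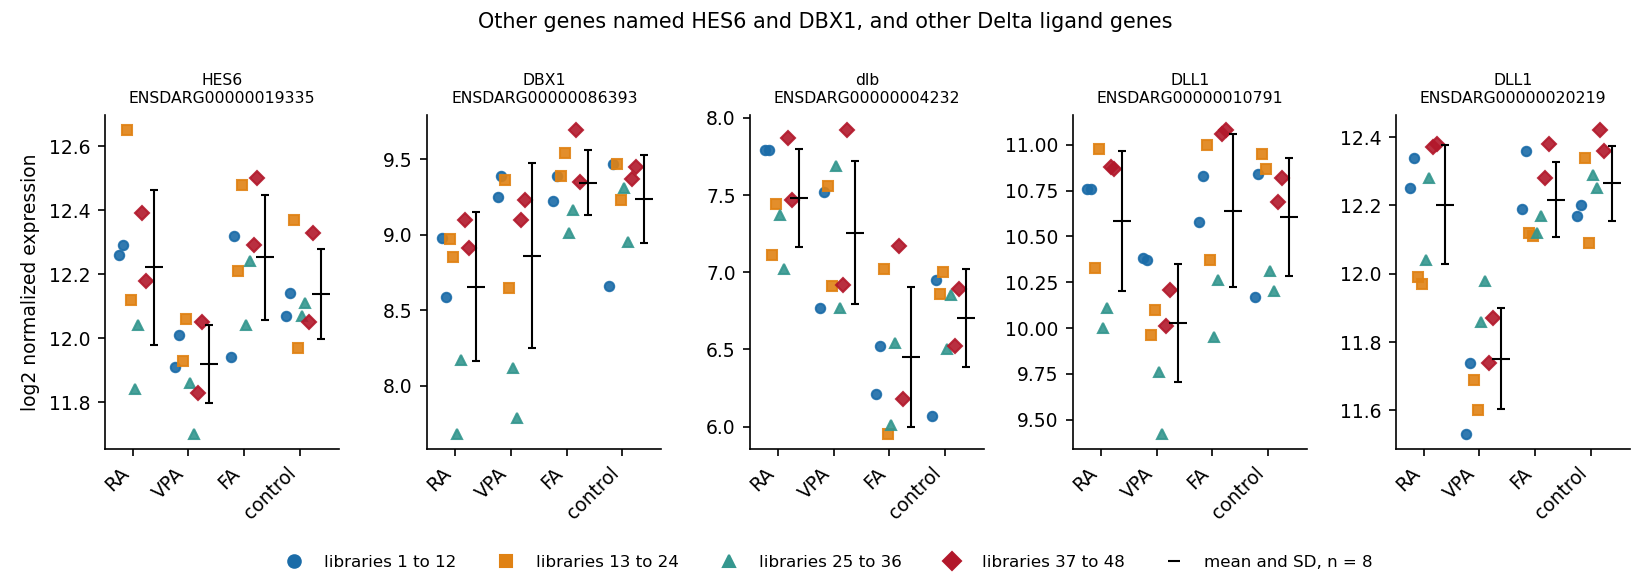
Normalized log2 level in every library of the second genes named HES6 and DBX1, of dlb and of the 2 genes named DLL1, by group (RA retinoic acid, VPA valproic acid, FA folic acid); shapes mark the sets by title number, and bars give the mean and SD over 8 libraries. The VPA libraries of both DLL1 genes lie low, and those of dlb lie between 6.77 and 7.92.

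HES6 (ENSDARG00000007097) belongs to the Hes family of bHLH proteins. In mouse and Xenopus HES6 promotes neuronal differentiation by opposing HES1, and in zebrafish a hes6 gene also takes part in the segmentation clock. The name is shared with a second gene, and which of them holds either role is not given here. ENSDARG00000007097 had 7.54, 8.25 and 8.51 as lowest, median and highest level in retinoic acid libraries. Valproic acid libraries gave 3.64, 4.24 and 6.30. Folic acid libraries had a median of 5.25 and reached 6.47, and control libraries gave 5.10, 5.72 and 6.68. All 8 retinoic acid libraries were above every library of the other 3 groups, and 5 of 8 valproic acid libraries were below every control library.

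The mean of HES6 in retinoic acid was 8.15 ± 0.323, against 5.76 ± 0.479 in controls (SD, n = 8 each). That is 5.24-fold higher (log2 fold change 2.39, SE 0.32, limma adjusted p = 1.4e-05). In valproic acid it was 4.60 ± 0.91, which is 0.447 of the control level (log2 fold change -1.16, SE 0.32, limma adjusted p = 0.0053). The median estimated number of reads behind these values was 168 per retinoic acid library, 13 per valproic acid library, 20 per folic acid library and 27 per control library. Set against each other, retinoic acid exceeded valproic acid by 3.55 (SE 0.32, limma adjusted p = 2.6e-10), an 11.7-fold difference, where 30% of all genes were called, 14.5% higher and 15.5% lower in retinoic acid. Doses are not given, so this sets side by side the exposures used and not equal doses. The folic acid difference from control was -0.39, with a 95% confidence interval of -1.04 to 0.26.

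The retinoic acid difference of HES6 was 2.82, 1.64, 2.57 and 2.52 in libraries 1 to 12, 13 to 24, 25 to 36 and 37 to 48. The retinoic acid and control libraries did not overlap in any of the 4 sets. Fitted alone, libraries 13 to 24 and 37 to 48 did not give a retinoic acid call (limma adjusted p = 0.67 and 0.58). The valproic acid difference was less even, at 0.50, -2.43, -1.47 and -1.25 in the same order. Libraries 1 to 12 thus gave the opposite sign, with valproic acid libraries at 5.27 and 6.30 and control libraries at 5.10 and 5.47. The test of a valproic acid effect on HES6 that differs between sets was not passed (limma F test, adjusted p = 0.19), where 1.98% of all genes were called. Without libraries 13 to 24 the valproic acid difference was -0.74 and was not called (limma adjusted p = 0.13), and without libraries 25 to 36 it was -1.06 (limma adjusted p = 0.053).

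The second gene named HES6 (ENSDARG00000019335) was not called after retinoic acid. It was at 12.22 ± 0.241 in retinoic acid, 11.92 ± 0.123 in valproic acid, 12.25 ± 0.194 in folic acid and 12.14 ± 0.14 in controls (SD, n = 8 each). Its retinoic acid difference of 0.08 had a 95% confidence interval of -0.10 to 0.26, which does not reach the interval of 1.74 to 3.04 of the first gene. Its valproic acid difference was -0.22 (SE 0.09, limma adjusted p = 0.053), and retinoic acid exceeded valproic acid by 0.30 (SE 0.09, limma adjusted p = 0.0086). How the counting treated reads that match both genes is not given in the sources used here.

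INSM1, a zinc-finger repressor that is switched on briefly in newborn neuronal and neuroendocrine cells, had 7.31, 7.79 and 8.43 as lowest, median and highest level in retinoic acid libraries. Valproic acid libraries gave 6.38, 6.93 and 7.92. Folic acid libraries gave 5.42, 6.33 and 7.18, and control libraries gave 5.62, 6.30 and 6.71. Every retinoic acid library was above every folic acid and control library, and 6 of 8 valproic acid libraries were above every control library.

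The mean of INSM1 was 7.87 ± 0.397 in retinoic acid, 7.14 ± 0.569 in valproic acid, 6.33 ± 0.512 in folic acid and 6.25 ± 0.387 in controls (SD, n = 8 each). Retinoic acid was 3.08-fold above control (log2 fold change 1.62, SE 0.23, limma adjusted p = 3.9e-05). Valproic acid was 1.85-fold above control (log2 fold change 0.89, SE 0.23, limma adjusted p = 0.0032). Folic acid differed by 0.08, with a 95% confidence interval of -0.39 to 0.55. These levels rest on a median of 124.5 estimated reads per retinoic acid library, 91 per valproic acid library, 40.5 per folic acid library and 39.5 per control library. Retinoic acid exceeded valproic acid by 0.73 (SE 0.23, limma adjusted p = 0.014).

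By set, in the order of the title numbers, INSM1 was higher after retinoic acid by 1.66, 1.98, 1.64 and 1.20, and the groups did not overlap in any set. It was not called in libraries 13 to 24, 25 to 36 or 37 to 48 alone (limma adjusted p = 0.47, 0.12 and 0.63). The valproic acid difference was 0.93, 1.22, 0.06 and 1.34, so that libraries 25 to 36 showed almost none. In that set valproic acid libraries were at 6.38 and 6.95 and control libraries at 6.50 and 6.71. Libraries 1 to 12, 13 to 24 and 25 to 36 alone gave no valproic acid call (limma adjusted p = 0.064, 0.15 and 0.94). Without libraries 25 to 36 the excess of retinoic acid over valproic acid was 0.45 and was not called (limma adjusted p = 0.19), and without libraries 13 to 24 it was 0.72 (limma adjusted p = 0.059).

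ELAVL3 encodes the Hu protein that marks neurons in zebrafish from the time they are born. Its lowest, median and highest levels were 7.22, 7.93 and 8.66 in retinoic acid libraries and 5.37, 7.04 and 8.48 in valproic acid libraries. In folic acid libraries they were 5.17, 6.46 and 7.05, and in control libraries 3.95, 6.13 and 6.95. Every retinoic acid library was above every control library, and 4 of 8 valproic acid libraries were.

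In retinoic acid the mean of ELAVL3 was 7.91 ± 0.489, against 5.90 ± 0.967 in controls (SD, n = 8 each), a 4.04-fold difference (log2 fold change 2.02, SE 0.38, limma adjusted p = 0.0018). The valproic acid mean of 6.99 ± 1.03 was 2.14-fold above control (log2 fold change 1.10, SE 0.38, limma adjusted p = 0.024). The folic acid difference was 0.40, with a 95% confidence interval of -0.37 to 1.16. Retinoic acid exceeded valproic acid by 0.92, which was not called (95% confidence interval 0.15 to 1.68, limma adjusted p = 0.063), and which was called in 4 of the 32 fits without 1 library. With the set as a block the same difference was called (limma adjusted p = 0.0053). The valproic acid call of ELAVL3 was lost without valproic acid replicate 1 (0.89, limma adjusted p = 0.069), without valproic acid replicate 2 (0.93, limma adjusted p = 0.063) and without control replicate 6 (0.82, limma adjusted p = 0.073).

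Both of those valproic acid libraries belong to libraries 1 to 12. In that set ELAVL3 stood at 8.13 and 8.48 in valproic acid libraries, against 5.31 and 6.06 in control libraries. The valproic acid difference of ELAVL3 was 2.62 there, 0.00 in libraries 13 to 24 and 0.77 in libraries 37 to 48. In libraries 25 to 36 the mean was 5.74 in valproic acid and 4.74 in controls. The test of a difference between sets was not passed (limma F test, adjusted p = 0.065). Without libraries 1 to 12 the pooled valproic acid difference was 0.59 (limma adjusted p = 0.34), and without libraries 37 to 48 it was 1.21 (limma adjusted p = 0.074). The retinoic acid difference was 2.53, 1.28, 2.57 and 1.67, with no overlap in any set. Fitted alone, libraries 13 to 24, 25 to 36 and 37 to 48 did not give a retinoic acid call (limma adjusted p = 0.67, 0.081 and 0.089). For retinoic acid the same F test called 0% of genes, with 1176 at an unadjusted p under 0.05, and for folic acid it called 0.00637%.

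**Figure D3:**
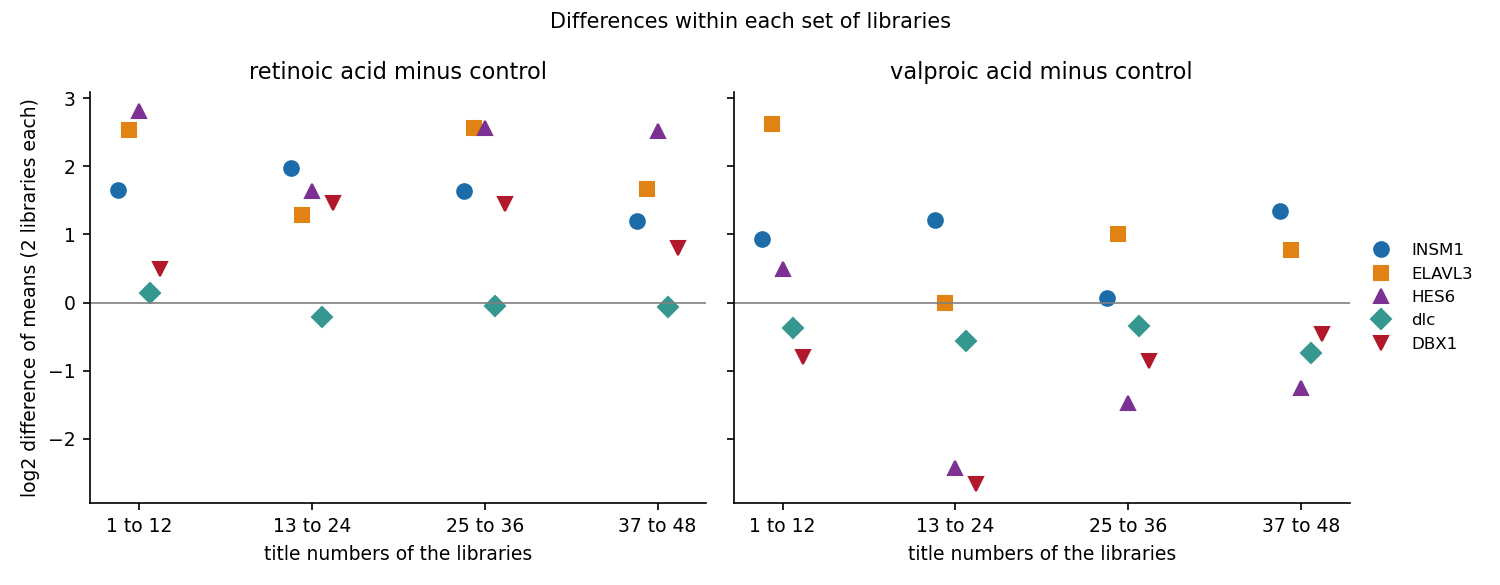
Difference of mean log2 level between treated and control libraries (vertical axis) within each set of title numbers (horizontal axis), for retinoic acid on the left and valproic acid on the right, with 2 libraries behind each mean. HES6 after valproic acid lies at 0.50 in libraries 1 to 12 and between -2.43 and -1.25 in the others.

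ELAVL3 also differed between sets whatever the group. In libraries 25 to 36 it was lower than in libraries 1 to 24 by 1.42 with groups held equal (log2 difference -1.42, SE 0.22, limma adjusted p = 3.4e-05), where 22.3% of all genes were called. In the control group the 2 libraries numbered 25 to 36 gave 3.95 and 5.53, against 5.31 and 6.06 in libraries 1 to 12 and 6.81 and 6.95 in libraries 13 to 24. None of the other 4 genes was called in that contrast. In libraries 37 to 48 against 1 to 24, where 9.19% of all genes were called, the differences of the 5 genes ran from -0.61 for DBX1 to 0.42 for INSM1 and none was called.

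DBX1 (ENSDARG00000001859) encodes a homeodomain protein that in mouse defines a progenitor domain midway along the dorsoventral axis of the neural tube. Its lowest, median and highest levels were 3.64, 5.05 and 5.92 in retinoic acid libraries and 1.17, 2.74 and 3.99 in valproic acid libraries. Folic acid libraries gave 2.98, 4.31 and 5.13, and control libraries gave 2.37, 4.27 and 4.72. The counts behind these levels were small, with a median of 19 estimated reads per retinoic acid library, 3 per valproic acid library, 8 per folic acid library and 12.5 per control library. Of the retinoic acid libraries 6 of 8 were above every control library, and of the valproic acid libraries 3 of 8 were below every control library.

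The mean of DBX1 in valproic acid was 2.78 ± 1.05, against 3.98 ± 0.865 in controls (SD, n = 8 each), or 0.435 of the control level (log2 fold change -1.20, SE 0.43, limma adjusted p = 0.03). In retinoic acid it was 5.03 ± 0.715, a difference from control of 1.05 that was not called (SE 0.43, limma adjusted p = 0.62). Retinoic acid exceeded valproic acid by 2.26 (SE 0.43, limma adjusted p = 0.00012), and 7 of 8 retinoic acid libraries were above every valproic acid library. The folic acid difference was 0.19, with a 95% confidence interval of -0.68 to 1.05. Within the sets the valproic acid difference was -0.80, -2.67, -0.86 and -0.47 and the retinoic acid difference 0.49, 1.47, 1.45 and 0.80. The valproic acid and control libraries overlapped in libraries 25 to 36 and 37 to 48. No set fitted alone gave a valproic acid call (limma adjusted p = 0.42, 0.073, 0.49 and 0.82). Libraries 1 to 12, 25 to 36 and 37 to 48 alone gave no call for retinoic acid against valproic acid either. Their limma adjusted p was 0.21, 0.058 and 0.47. The valproic acid call of DBX1 was lost in 6 of the 32 fits without 1 library, those without control replicate 1, 2 or 4 or valproic acid replicate 3, 4 or 7. Among these the difference was -0.97 without valproic acid replicate 3 (limma adjusted p = 0.078). Without libraries 13 to 24 it was -0.71 (limma adjusted p = 0.29), and the call was also lost without libraries 1 to 12 (limma adjusted p = 0.052) or 25 to 36 (limma adjusted p = 0.067).

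The second gene named DBX1 (ENSDARG00000086393) was at 8.65 ± 0.492 in retinoic acid, 8.86 ± 0.61 in valproic acid, 9.34 ± 0.213 in folic acid and 9.24 ± 0.29 in controls (SD, n = 8 each). Its retinoic acid difference of -0.59 (SE 0.20, limma adjusted p = 0.34) and its valproic acid difference of -0.38 (SE 0.20, limma adjusted p = 0.15) were not called. Libraries 25 to 36 gave -1.21 for retinoic acid and -1.18 for valproic acid, and the other sets lay between -0.45 and 0.25.

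**Figure D4:**
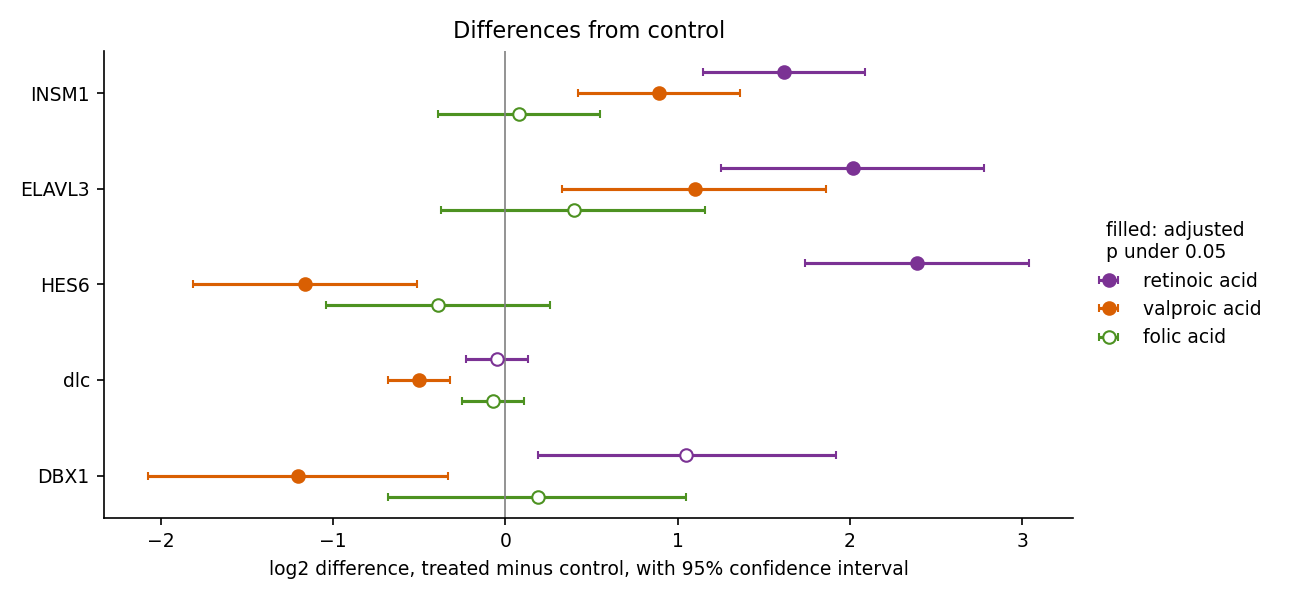
Log2 difference from control (horizontal axis) for the 5 genes after retinoic acid, valproic acid and folic acid, with 95% confidence intervals from the limma fit over all 32 libraries; filled points have an adjusted p under 0.05. HES6 lies at 2.39 after retinoic acid and at -1.16 after valproic acid.

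Against the folic acid libraries in place of the control libraries, INSM1, ELAVL3 and HES6 were higher in retinoic acid by 1.54, 1.62 and 2.78 (limma adjusted p = 6.6e-05, 0.02 and 4.5e-07), where 0.866% of all genes were called. Neither dlc, at 0.02, nor DBX1, at 0.87, was called there. In valproic acid against folic acid, where 29.3% of all genes were called, INSM1 was higher by 0.81 (limma adjusted p = 0.0074), dlc lower at -0.44 (limma adjusted p = 0.00031) and DBX1 lower at -1.39 (limma adjusted p = 0.013). In that comparison ELAVL3 at 0.70 (limma adjusted p = 0.17) and HES6 at -0.77 (limma adjusted p = 0.065) were not called.

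Each of the 5 genes was then read among other genes of its family, pathway or domain, from lists chosen with earlier results of these data known. The median over all 15710 genes was -0.01 in both comparisons with control. HES6 was 1 of 14 measured genes of the Hes, Her and Hey list, in which it was placed by family and not by a shared role. After retinoic acid 2 of these 14 rose and 0 fell, namely HES6 and her8a, the second by 0.38 (SE 0.09, limma adjusted p = 0.031), with 0.592% of all genes higher and 0.14% lower, and the list median was 0.09. The her8a call was lost in 9 of the 32 fits without 1 library, which left out retinoic acid replicate 1, 3, 4 or 8, or control replicate 1, 5, 6, 7 or 8 (limma adjusted p of up to 0.1). It was also lost without libraries 1 to 12, 13 to 24 or 37 to 48 (limma adjusted p = 0.3, 0.089 and 0.35). After valproic acid 10 of the 14 fell and 0 rose, where 15.4% of all genes fell and 15.9% rose, with a list median of -1.02. Those with the smallest adjusted p were HEY1, her12, her15.1 and her4.2, at -1.23, -1.41, -1.65 and -2.33 (limma adjusted p = 1.1e-06, 1.1e-05, 6.4e-05 and 0.00033), all of them targets or relatives of targets of Notch. HES6 at -1.16 was near the middle of that list after valproic acid and at its top after retinoic acid. In valproic acid her4.2 averaged 2.31, with 1 library at the lowest value. Its fall was not called in libraries 1 to 12, 13 to 24 or 25 to 36 alone (limma adjusted p = 0.11, 0.061 and 0.11). Nor was that of HEY1 in libraries 13 to 24, 25 to 36 or 37 to 48 alone (limma adjusted p = 0.07, 0.12 and 0.055). The her12 fall was not called in libraries 1 to 12 alone (limma adjusted p = 0.22).

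INSM1 and ELAVL3 were 2 of 27 measured proneural and neuronal differentiation genes. After retinoic acid 3 of 27 rose and 0 fell, beside 0.592% and 0.14% of all genes, with a median of 0.14. Those that rose were INSM1, ELAVL3 and olig4, a bHLH gene that rose by 1.02 (SE 0.21, limma adjusted p = 0.0055). The olig4 call was lost without libraries 13 to 24 (limma adjusted p = 0.054) or 37 to 48 (limma adjusted p = 0.069). After valproic acid 7 of 27 rose and 6 fell, beside 15.9% and 15.4% of all genes, with a median of -0.04. INSM1 and ELAVL3 rose there together with MYT1, a zinc-finger factor of early neurons (1.29, limma adjusted p = 1.8e-07), and tubb5, a tubulin gene (0.59, limma adjusted p = 2.2e-05). GADD45G, PROX1 and PHOX2A fell in the same comparison, at -2.31, -2.69 and -1.83 (limma adjusted p = 6.3e-08, 4.6e-06 and 1.7e-05). Unlike INSM1 and ELAVL3, olig4 also fell there, at -0.86 (limma adjusted p = 0.0017). In libraries 1 to 12 alone PHOX2A was at -0.15 after valproic acid (limma adjusted p = 0.68). PROX1 was at the lowest value in 1 valproic acid library. Its fall was not called in libraries 13 to 24 or 37 to 48 alone (limma adjusted p = 0.068 and 0.083).

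The ligand gene dlc was 1 of 30 measured genes of Notch ligands, receptors and modulators. Neither gene named DLL1 was matched to this list, so its counts leave out their falls after valproic acid. None of the 30 passed the test after retinoic acid, where 0.732% of all genes did, and the list median was -0.06. After valproic acid 6 of 30 rose and 10 fell, beside 15.9% and 15.4% of all genes, with a median of -0.10. Beside dlc, the falls included the coactivator MAML1 at -0.50 and the feedback gene NRARP (ENSDARG00000018958) at -0.58 (limma adjusted p = 3.3e-06 and 5.5e-05), and the sheddase gene ADAM17 (ENSDARG00000043213) rose by 0.82 (limma adjusted p = 4.2e-07).

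DBX1 (ENSDARG00000001859) was 1 of 18 measured genes of the dorsoventral domains of the neural tube. After retinoic acid none of these 18 passed the test, where 0.732% of all genes did. After valproic acid 14 of the 18 fell and 0 rose, beside 15.4% and 15.9% of all genes, with a median of -1.01. The falls with the smallest adjusted p were msx3, OLIG2, PAX6 and GBX1, at -0.64, -2.77, -1.63 and -0.58 (limma adjusted p = 0.00014, 0.00039, 0.0011 and 0.0014). None of these 4 falls was called in libraries 1 to 12 alone. OLIG2 and GBX1 lay above control there, at 0.37 and 0.22 (limma adjusted p = 0.57 and 0.39). In the same set msx3 and PAX6 were at -0.15 and -0.09 (limma adjusted p = 0.56 and 0.82). The GBX1 difference was -0.29 without libraries 25 to 36 (limma adjusted p = 0.11). Of the 18 genes, 4 were at the lowest value in at least 1 valproic acid library, and 1 in at least 1 control library.

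**Figure D5:**
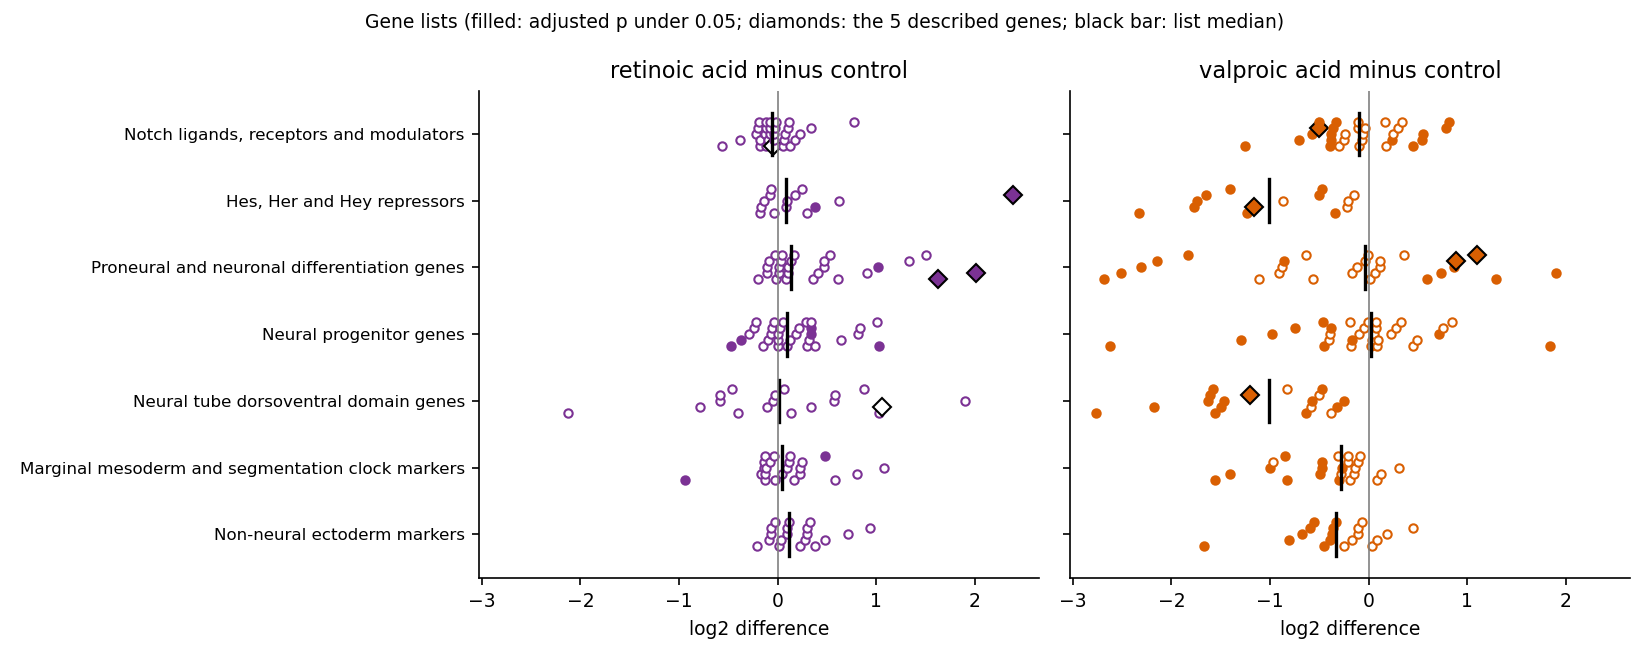
Log2 difference from control (horizontal axis) of each measured gene of 7 lists after retinoic acid (left) and valproic acid (right); filled points have an adjusted p under 0.05, diamonds are the 5 genes described here, and black bars are list medians. After valproic acid the medians of the Hes, Her and Hey list and of the dorsoventral list lie at -1.02 and -1.01.

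Genes of other tissues moved in the same comparisons, where over all genes 0.592% rose and 0.14% fell after retinoic acid and 15.9% rose and 15.4% fell after valproic acid. Among 31 neural progenitor genes, 3 rose and 2 fell after retinoic acid, and 2 rose and 8 fell after valproic acid. Among 23 markers of marginal mesoderm and the segmentation clock, tissues where dlc and a hes6 gene are also used, 1 rose and 1 fell after retinoic acid and 0 rose and 10 fell after valproic acid. Their summed level, on the log2 scale, ran from 15.77 to 16.10 in retinoic acid libraries, 15.61 to 15.87 in valproic acid libraries, 15.84 to 15.99 in folic acid libraries and 15.80 to 16.11 in control libraries. Among 19 markers of non-neural ectoderm, 0 rose and 0 fell after retinoic acid and 0 rose and 10 fell after valproic acid. Their summed level ran from 17.84 to 18.35 in retinoic acid libraries, 17.86 to 18.21 in valproic acid libraries, 18.01 to 18.19 in folic acid libraries and 17.92 to 18.38 in control libraries. Both sums weigh abundant genes most, such as krt4 in the non-neural list, with a median of 16.19 over the 32 libraries. They can stay flat while less abundant markers fall, and are no measure of tissue amount. No marker of either list was at the lowest value throughout any group. The part of these tissues in the levels of the 5 genes was not tested.

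Over the 32 libraries HES6 and DBX1 (ENSDARG00000001859) had a Pearson correlation of 0.70, INSM1 and ELAVL3 one of 0.57, and ELAVL3 and HES6 one of 0.57. Once the mean of each group and set was taken out, the 10 pairs lay between -0.34 and 0.23. The 2 libraries of a group and set then mirror each other, so this range rests on fewer independent values than 32. Among the genes whose levels followed HES6 (ENSDARG00000007097) most closely over the 32 libraries were oc90 and ugt5g1, with correlations of 0.90 and 0.90. Like HES6, both were called higher after retinoic acid and lower after valproic acid, with log2 differences from control of 2.98 and -1.45 for oc90 and of 1.89 and -1.27 for ugt5g1. The closest genes to dlc were DLL1 (ENSDARG00000020219), LSM14A and ZCCHC7, at 0.87, 0.86 and 0.83. For ELAVL3 they were EXOC6, HYAL2 and gna12a, at 0.87, 0.84 and 0.84, and for INSM1 nt5dc2, lamp1b and SOX3, at 0.78, 0.72 and 0.72. DBX1 was followed less closely, by ugt5g1, her8a and CAVIN2, at 0.75, 0.74 and 0.74. These correlations describe the same 32 libraries and share the treatment groups and sets.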

How the data were processed

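The authors deposited 1 table of normalized log2 expression for 15710 Ensembl genes in 32 libraries. Per the labels' protocols, RNA was taken up in Qiazol and polyadenylated RNA went into directional NEBNext Ultra II libraries. Per the submitters' processing notes, HTSeq 0.11.0, limma and GRCz11 were used. The sources used here do not name the aligner, the annotation, the low-count filter or the kind of normalization. The deposited log2 values have nearly the same distribution in every library (the 1000 highest ranked values differ by at most 0.03), so a change in total RNA would not be seen. Groups come from the treatment label, and replicates were numbered in accession order.

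All genes were fitted in limma 3.58.1 (R 4.3.3) with 1 mean per group, no covariate, an intensity trend and Benjamini-Hochberg adjustment. A filter at a mean of 1 removed 0 genes. Set contrasts added the title-number set, and differences of an effect between sets were tested on the 16 group and set means. The fit was tested on simulated data. Estimated reads were read from the order of distinct low values in a library, as an estimate only. Alternatives were no trend, median centring, no filter, a mean above 5, the set as a block, means of 2 libraries, only the groups compared, single sets, and leaving out each set or library.

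Names matched 15016 identifiers, of which 1503 share a name. Of 233 list symbols, 70 matched exactly, 40 ignoring case and 55 without the paralog letter, and 68 were not matched. The 5 genes and the lists were chosen with earlier results of these data known. Named genes were the 5, genes of the same name or other paralogs, up to 4 called genes per list and comparison by adjusted p, and the 3 best correlated genes in the upper 75% by mean; 1 gene that this rule names is not reported here. ELAVL4, DBX2, a second INSM1, and sequences and promoter motifs were not analysed here. Python 3.11.15, pandas 2.3.3, numpy 2.4.6 and matplotlib 3.10.9 were used.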

Additional observations from a re-analysis of the deposited data

Results flagged for a closer look

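Over the 20 combinations of the 5 genes with the 4 groups, 1 library stood far from the others of its group, and chance alone flags about 1 in 20 groups. It was the highest folic acid library of dlc, replicate 8, at 12.30, where the mean of the 8 folic acid libraries was 11.82 ± 0.212. At the lower-quartile gene this library had an estimated 13 reads, where folic acid libraries ran from 12 to 45.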

How the results depend on the processing

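INSM1, ELAVL3 and HES6 (ENSDARG00000007097) after retinoic acid kept their direction in every setting, and were called in each fit without 1 library or without 1 set. With the 2 libraries of each group and set averaged, ELAVL3 was not called after retinoic acid (limma adjusted p = 0.14) or valproic acid (0.12), nor were DBX1 (ENSDARG00000001859) and DLL1 (ENSDARG00000010791) after valproic acid (0.087 and 0.059), INSM1 in retinoic acid against valproic acid (0.06), or olig4 and her8a after retinoic acid (0.13 and 0.55). With only the 2 groups compared, the valproic acid calls of ELAVL3 (0.059) and DBX1 (0.065) were lost, and so was the retinoic acid call of her8a (0.063), which was also lost without the intensity trend (0.063). DBX1 has no value at a mean above 5. Single sets hold 2 libraries per group. The cause of these changes was not tested.

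Counts of genes called by limma varied. For retinoic acid against control the count was 115, and it was 199 with the set as a replicate block, 36 on averaged libraries, 67, 2, 32 and 13 in the 4 sets alone, 72 without libraries 1 to 12 and 65 without libraries 37 to 48. Deviations from group means, averaged over the 2 libraries of a group and set, were correlated between groups. Retinoic acid and valproic acid gave 0.32 to 0.54 in the same set and -0.40 to 0.15 in other sets. Retinoic acid and control gave 0.09 to 0.53 and -0.31 to 0.17. Valproic acid and control gave -0.12 to 0.51 and -0.39 to 0.42. With control, the same-set and other-set ranges thus overlap. Taking out the group mean by itself lowers the values between other sets. Under that replicate block ELAVL3 was also called in retinoic acid against valproic acid (limma adjusted p = 0.0053), as was the second DBX1 (ENSDARG00000086393) against control after retinoic acid (0.031) and valproic acid (0.039), dlb after retinoic acid (0.035) and the second HES6 (ENSDARG00000019335) after valproic acid (0.025). Retinoic acid against valproic acid gave 2280, 312, 1836 and 1156 genes in the 4 sets alone, and valproic acid against control gave 401, 1524 and 1084 in the last 3. Differences of the valproic acid effect between sets were called for 153 genes without the intensity trend, and those of the folic acid effect for 0 without the trend and 0 at a mean above 5.

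Signs turned in these cases. In libraries 1 to 12 alone, the retinoic acid difference was 0.14 for dlc, 0.25 for DLL1 (ENSDARG00000010791) and 0.11 for DLL1 (ENSDARG00000020219). In the same set the valproic acid difference was 0.50 for HES6 (ENSDARG00000007097), 0.37 for OLIG2, 0.28 for TP63, 0.46 for SOX1, 0.22 for GBX1 and 0.25 for the second DBX1. There too the folic acid difference of DBX1 (ENSDARG00000001859) was -0.81, and ELAVL3 was at -0.08 in retinoic acid against valproic acid. In libraries 13 to 24 alone ELAVL3 was at -0.03 after folic acid. In libraries 25 to 36 alone the second HES6 was at -0.15 after retinoic acid and INSM1 at -0.69 after folic acid. In libraries 37 to 48 alone DLL1 (ENSDARG00000010791) was at 0.12 after retinoic acid, dlc at 0.01 after folic acid and INSM1 at -0.14 in retinoic acid against valproic acid. Without libraries 1 to 12 INSM1 was at -0.07 after folic acid. Without libraries 13 to 24, dlc was at 0.01 and DLL1 (ENSDARG00000010791) at 0.06 after retinoic acid, and that DLL1 gene was at 0.04 without libraries 25 to 36. Without libraries 37 to 48 DBX1 was at -0.11 after folic acid. Over fits without 1 library, DLL1 (ENSDARG00000010791) ran from -0.08 to 0.06 after retinoic acid, DBX1 from -0.04 to 0.36 and INSM1 from -0.04 to 0.21 after folic acid.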

Other observations

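With the mean of each group and set taken out, the gene whose level followed dlc most closely was her1, with a correlation of 0.87. It is a segmentation clock gene of the zebrafish mesoderm, picked as the highest among genes in the upper 75% by mean. On this scale the 2 libraries of a group and set mirror each other, so the correlation rests on fewer independent values than 32. The level of her1 differed from control by -0.08 after retinoic acid and by -0.15 after valproic acid, and neither was called (limma adjusted p = 0.97 and 0.27). ELAVL3 was followed on this scale by RAI14, ZIC1 and CYP26C1, at 0.83, 0.82 and 0.80.

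In libraries 25 to 36 against 1 to 24, where 22.3% of all genes were called, 12 of 27 proneural and neuronal differentiation genes were lower, ELAVL3 among them, and 4 were higher, with a median of -0.18. In the same contrast 9 of 18 dorsoventral domain genes were lower and 0 were higher, with a median of -0.62. In libraries 37 to 48 against 1 to 24, where 9.19% of all genes were called, 2 of the 27 and 0 of the 18 were called.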
